A study of Mus musculus with 8 samples.

Results

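Semaphorins are guidance ligands, and plexins and neuropilins are their receptors. The deposited table of this study lists 29 of these genes, 19 semaphorin ligands and 10 receptors (8 plexins and 2 neuropilins), among 16913 genes. They were taken as every protein-coding row whose symbol names a semaphorin of class 3 to 7, a plexin of family A to D or a neuropilin. The mouse reference names 31 such genes, and the other 2, Sema3d and Plxnb3, were not analysed here.

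RNA was sequenced from lateral ganglionic eminence (LGE), the embryonic ridge that gives rise to the projection neurons of the striatum. It was dissected at embryonic day 14.5 from mice on a mixed background of C57BL/6J and CD1. The Meis2-CKO group held 4 samples with the genotype Dlx5/6-Cre;Meis2F/F, in which both alleles of the homeobox gene Meis2 are floxed. The control group held 4 littermate samples with the genotype Dlx5/6-Cre;Meis2F/+, so the controls carried Cre and 1 floxed allele and are not wild type. The Dlx5/6-Cre driver is active in ventral forebrain cells that express Dlx genes, and other cells of the dissected tissue keep Meis2. The labels do not say whether embryos were pooled, nor their sex, so the authors' p-values may measure only the spread between these samples. The question the comparison answers here is whether loss of Meis2 in these cells came with different levels of semaphorin ligands or receptors.

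Plexins are single-pass membrane receptors whose cytoplasmic part acts on small GTPases of the Rap and R-Ras group, and their activation changes actin and adhesion in the growth cone. Secreted class 3 semaphorins mostly bind a neuropilin, which holds the ligand while a plexin carries the signal, whereas classes 4 to 7 are tethered to the membrane and bind plexins directly. In the developing ventral forebrain, class 3 semaphorins of the striatal mantle are known to repel migrating cortical interneurons that carry neuropilins. Signalling from Sema3e to Plxnd1 is known to shape synapses on direct-pathway striatal neurons.

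All values below are the authors' means of each genotype, in a signal whose unit the header does not name, given with the log2 fold change and p-value that they deposited; a positive fold change means a higher level in Meis2-CKO. The signal looks scaled for transcript length: when protein-coding genes were put in 5 bins of rising exon length, the median exon length went from 1724 nt to 10060 nt, and the median control mean from 9.18 to 14.2. Levels of different genes are compared on that footing. The means carry no spread between samples, the 8 library columns could not be tied to samples by name, and the sequencing depth is unknown. Values for single samples are therefore not given, and a statement that a gene passed or did not pass rests on the authors' adjusted p at 0.05. Meis2 itself, in the authors' deposited table, had a mean of 140 in Meis2-CKO and 204 in control (log2 fold change -0.53, adjusted p = 0.00195). All 10 LGE and striatal markers were listed, and 5 of them were lower in Meis2-CKO at the threshold (Isl1, Ebf1, Foxp1, Zfp503 and Bcl11b), beside 0.544% of all genes called as lower. Of the other 5, none passed: Six3 had a log2 fold change of -0.59, and Dlx1 (0.35), Dlx2 (0.34), Dlx5 (0.36) and Gsx2 (0.22) had log2 fold changes above 0 by the authors' deposited values. Among sex-linked genes of the authors' deposited table, Xist had a mean of 256 in Meis2-CKO and 78.0 in control, and did not pass. The Y-linked Eif2s3y had 14.0 in Meis2-CKO and 50.5 in control. Of 5 sex-linked genes listed, 3 passed as lower in Meis2-CKO (Eif2s3y, Ddx3y and Kdm5d), and these count among the called genes of the background. Uty (2.36 in Meis2-CKO and 6.60 in control) was also lower and did not pass. Higher Xist and lower Y-linked genes are the direction that more female tissue in Meis2-CKO would give. Genotype and sex are therefore not separated in this comparison. The part of this difference between the groups in the results was not tested.

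No semaphorin, plexin or neuropilin passed the threshold in either direction. By the authors' deposited p-values, 0 of 29 members had an adjusted p under 0.05, and 0 had an unadjusted p under 0.05. Among all 16913 genes 0.78% were called, and among 13643 protein-coding genes 0.344% were called, so a count of 0 among 29 genes is near the background. At an unadjusted p under 0.05 the share of protein-coding genes was 1.36%. The family's summed mean was 730 in Meis2-CKO and 729 in control. The median log2 fold change was 0.02 over the members and 0.01 over all protein-coding genes, and the median absolute log2 fold change was 0.09 in both. The log2 fold changes that the authors deposited for the members ran from -0.44 (Sema6b) to 0.27 (Sema5a), and 16 of 29 lay within 0.1 of 0. Among the 29 members the smallest p in the authors' deposited table was that of Sema5b (unadjusted p = 0.0581). Of the 29 members 22 (75.9%) had a p over 0.5, and of all protein-coding genes 81.8% did. Evenly spread p-values would put fewer genes over 0.5 and more under 0.05 than were found. The deposited p-values therefore run high, and a member's p is better read beside these shares than at face value.

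**Figure D1:**
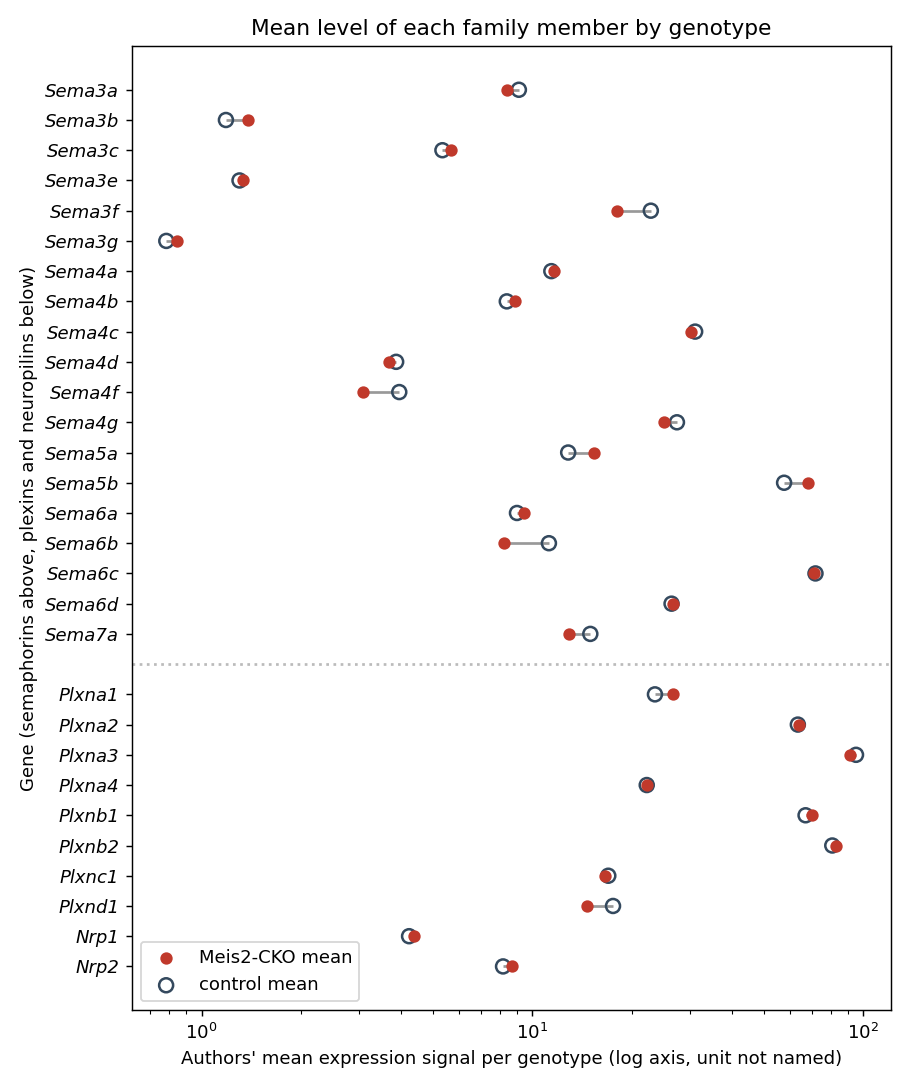
Mean expression signal of the 29 members by genotype, with the log-scaled signal on the x axis (unit not named) and 1 row per gene; filled points are Meis2-CKO means, open circles are control means, and a grey line joins them. The means have no error bars because no spread was available, and the points of most genes overlap, from 0.843 in Meis2-CKO and 0.782 in control for Sema3g up to 91.4 in Meis2-CKO and 95.1 in control for Plxna3.

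The secreted class 3 semaphorins were the least expressed ligands, with a median of 3.54 in Meis2-CKO and 3.32 in control. Sema3f, a repellent that signals through Nrp2, stood above the others of its class. In the authors' deposited table Sema3f (ENSMUSG00000034684, chromosome 9 of GRCm38, 107681500 to 107710475) had a mean of 18.1 in Meis2-CKO and 22.8 in control (log2 fold change -0.32, p = 0.152). Its mean was lower in Meis2-CKO, by an amount that did not pass. Sema3a, the collapsin that acts through Nrp1, had a mean of 8.36 in Meis2-CKO and 9.11 in control (log2 fold change of -0.11) in the authors' deposited table. Sema3c, another secreted guidance ligand, had 5.69 in Meis2-CKO and 5.35 in control (log2 fold change of 0.10).

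The other 3 class 3 genes were near the low end of the table. Sema3e, the ligand of Plxnd1, had a mean of 1.33 in Meis2-CKO and 1.303 in control (log2 fold change of 0.04) in the authors' deposited table. Sema3b (ENSMUSG00000057969, chromosome 9 of GRCm38, 107597674 to 107609229) had 1.38 in Meis2-CKO and 1.19 in control; its log2 fold change of 0.21 in the authors' deposited table came with p = 0.799. Of the genes with a control mean from 1 to below 10, the smallest absolute log2 fold change that was called was 1.33. Sema3g, a class 3 gene of vessels, had 0.843 in Meis2-CKO and 0.782 in control (log2 fold change of 0.10) and was the 1 member whose higher mean was under 1; the other 28 reached 1. The 10 endothelial markers summed to 73.8 in Meis2-CKO and 77.4 in control, and none of them passed. Class 3 as a whole summed to 35.7 in Meis2-CKO and 40.5 in control, and most of that gap was that of Sema3f.

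Among the members on chromosome 9, Sema3b and Sema3f lie closest, 72.3 kb apart, and differed in sign (0.21 and -0.32 in the authors' deposited table). Sema3a and Sema3e, 423 kb apart on chromosome 5, also differed in sign (-0.11 and 0.04). None of these 4 differences passed the threshold.

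The class 4 semaphorins are membrane ligands, several of which bind B-family plexins. All 6 listed genes had a higher mean of at least 1, and 2 of their deposited log2 fold changes lay above 0 and 4 below (median -0.04). Sema4c, a ligand of Plxnb2, was the most expressed of them, with a mean of 30.2 in Meis2-CKO and 31.1 in control (log2 fold change -0.03). Exons of D430040D24Rik on the opposite strand share 334 nt with Sema4c, and whether reads were counted by strand is not given. Sema4g had 25.1 in Meis2-CKO and 27.4 in control (log2 fold change of -0.11) in the authors' deposited table. Sema4a had 11.7 in Meis2-CKO and 11.4 in control (log2 fold change of 0.04), and Sema4b 8.85 in Meis2-CKO and 8.37 in control (log2 fold change of 0.09).

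The lower 2 of class 4 were close to each other in control and further apart in Meis2-CKO. Sema4d, the ligand of Plxnb1 that also acts on immune cells, had a mean of 3.70 in Meis2-CKO and 3.88 in control (log2 fold change of -0.05) in the authors' deposited table. Sema4f (ENSMUSG00000000627, chromosome 6 of GRCm38, 82911885 to 82939769) had 3.09 in Meis2-CKO and 3.96 in control. The deposited log2 fold change of -0.34 was the second lowest of the 19 ligands, and its p in the authors' deposited table was 0.524.

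Both class 5 semaphorins, membrane ligands with thrombospondin repeats, had higher means in Meis2-CKO, and neither passed. Sema5b (ENSMUSG00000052133, chromosome 16 of GRCm38, 35541145 to 35664732) had a mean of 68.0 in Meis2-CKO and 57.7 in control, and from the authors' deposited table came a log2 fold change of 0.25 with p = 0.0581; it did not pass after adjustment. Sema5a (ENSMUSG00000022231, chromosome 15 of GRCm38, 32244810 to 32696341) had 15.4 in Meis2-CKO and 12.8 in control (log2 fold change 0.27, p = 0.310) in the authors' deposited table. The pair had similar fold changes and differing p-values, and Sema5b was the more expressed gene. Class 5 summed to 83.4 in Meis2-CKO and 70.5 in control.

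Progenitor and young-neuron markers lay mostly on opposite sides of 0 between the same means. All 8 progenitor markers lay above 0, with a median log2 fold change of 0.21 (Nes 126 in Meis2-CKO and 104 in control), while 6 of 8 young-neuron markers lay below 0, with a median of -0.33. No progenitor marker passed, and of the young-neuron markers Nefl passed as lower in the authors' deposited table (2.99 in Meis2-CKO and 11.0 in control, adjusted p = 0.00202). The fold changes of Sema5a, Sema5b, Sema3f, Sema4f and Sema6b stand beside these values, and the part of a changed mix of cells in them was not tested. Among the other lists none passed: 10 microglial markers summed to 72.9 in Meis2-CKO and 71.8 in control, 8 pallial markers to 209.6 in Meis2-CKO and 184.0 in control, 6 oligodendrocyte-lineage markers to 37.3 in Meis2-CKO and 36.2 in control, and 6 listed markers of meningeal fibroblasts to 3.61 in Meis2-CKO and 6.20 in control. In bulk tissue fewer cells of a type and less RNA per cell cannot be told apart.

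The class 6 semaphorins, transmembrane ligands of A-family plexins, held both the most expressed ligand and the lowest fold change of the family. Sema6c (ENSMUSG00000038777, chromosome 3 of GRCm38, 95160457 to 95174024) had a mean of 70.9 in Meis2-CKO and 71.8 in control, with a log2 fold change of -0.0042 in the authors' deposited table, and made up 21.5% of all ligand signal in Meis2-CKO and 21.7% in control. Sema6d had 26.5 in Meis2-CKO and 26.4 in control (log2 fold change of 0.02) in the authors' deposited table. Sema6a, which binds Plxna2 and Plxna4, had 9.42 in Meis2-CKO and 8.98 in control (log2 fold change 0.08). These 3 genes lay within 0.1 of 0.

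Sema6b (ENSMUSG00000001227, chromosome 17 of GRCm38, 56123085 to 56140343) was the exception in size. It had, in the authors' deposited table, a mean of 8.20 in Meis2-CKO and 11.2 in control, a log2 fold change of -0.44 with p = 0.181, which did not pass. Of 12204 protein-coding genes whose higher mean was at least 1, 4.28% had an absolute log2 fold change of that size or more. Sema6b was singled out as the largest absolute fold change of 29 members, so this share describes its size and is not a test. The share pools genes of all levels. Among protein-coding genes with a control mean from 10 to below 30, as for Sema6b, the 95th percentile of the absolute log2 fold change was 0.30. Sema7a, the glycolipid-anchored semaphorin that binds Plxnc1 and integrins, had 12.9 in Meis2-CKO and 15.0 in control (log2 fold change -0.20, p = 0.454) in the authors' deposited table. Over all 19 ligands 10 fold changes lay above 0 and 9 below, and the summed means were 329.5 in Meis2-CKO and 330.4 in control.

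**Figure D2:**
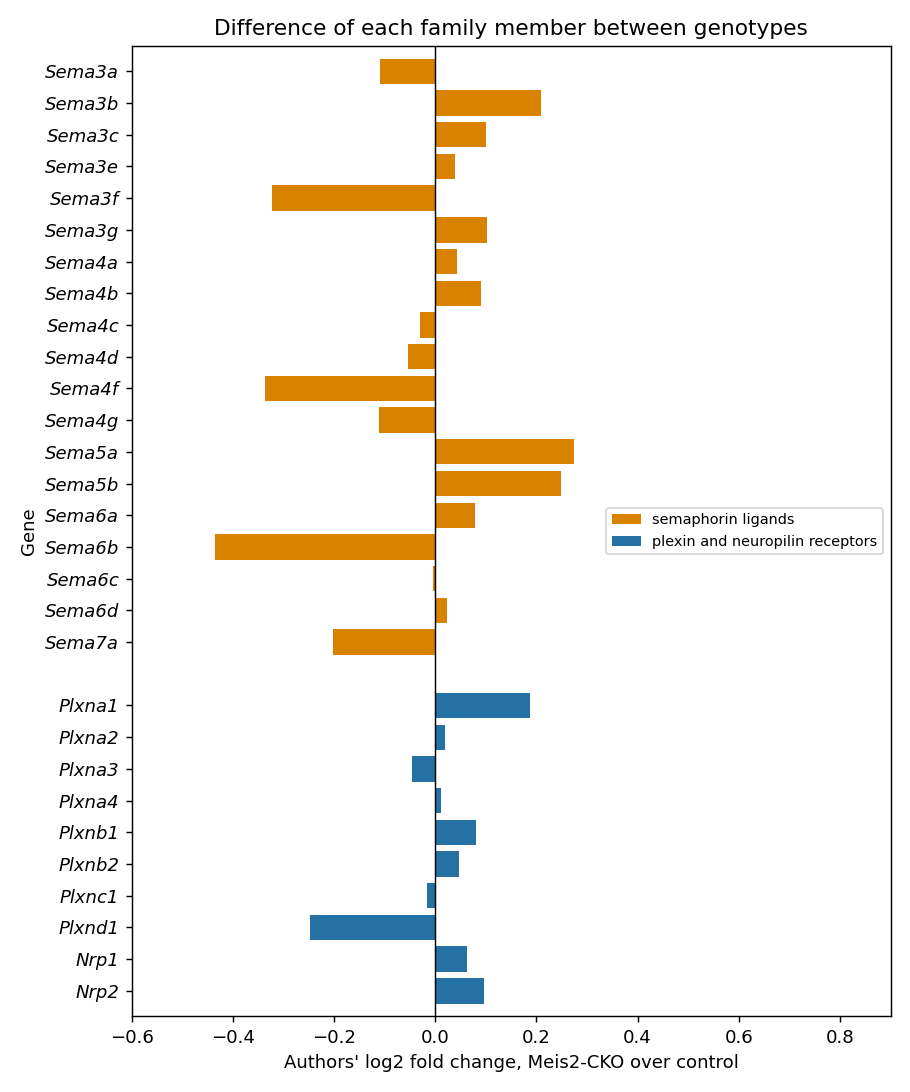
Bars give the authors' log2 fold change, Meis2-CKO against control, on the x axis for each of the 29 genes on the y axis, orange for semaphorin ligands and blue for plexin and neuropilin receptors. Ligands reach from -0.44 (Sema6b) to 0.27 (Sema5a) and receptors from -0.25 (Plxnd1) to 0.19 (Plxna1), and none passed the threshold.

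The A-family plexins, signal-carrying partners of neuropilins and direct receptors of class 5 and 6 ligands, included the most expressed gene of the family. Plxna3 (ENSMUSG00000031398, chromosome X of GRCm38, 74329066 to 74344689) had a mean of 91.4 in Meis2-CKO and 95.1 in control (log2 fold change -0.05, p = 0.690) in the authors' deposited table. Plxna3 is X-linked, and the Xist means given above stand beside its value. Plxna2 (ENSMUSG00000026640, chromosome 1 of GRCm38, 194618218 to 194816869), a receptor of Sema6a, had 63.8 in Meis2-CKO and 63.5 in control (log2 fold change 0.02, p = 0.880) in the authors' deposited table. By control mean Plxna3 stood at percentile 93.9 and Plxna2 at percentile 89.5 of protein-coding genes.

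Plxna1 and Plxna4 had lower levels than these. Plxna1 (ENSMUSG00000030084, chromosome 6 of GRCm38, 89316314 to 89362620) had 26.5 in Meis2-CKO and 23.5 in control, and its log2 fold change of 0.19 (p = 0.356) in the authors' deposited table was the highest of the receptors. The antisense gene Gm26811 overlaps 10.7% of the exon length of Plxna1, and without a stated strand reads over that shared stretch cannot be told apart. Plxna4, a receptor of Sema3a and Sema6a, had 22.15 in Meis2-CKO and 22.17 in control. The deposited log2 fold change was 0.01 although its mean was the lower in Meis2-CKO. The authors' fold changes lay above the log2 ratio of their means by a median of 0.01 over 13286 genes with both means over 1, and Plxna4 was the 1 member whose sign differed between the measures.

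Plxnb1 and Plxnb2, the B-family receptors of Sema4d and Sema4c, were among the 5 genes with the highest control means of the family. In the authors' deposited table Plxnb2 (ENSMUSG00000036606, chromosome 15 of GRCm38, 89155549 to 89180788) had a mean of 82.6 in Meis2-CKO and 80.7 in control (log2 fold change 0.05, p = 0.698). Plxnb1 (ENSMUSG00000053646, chromosome 9 of GRCm38, 109095389 to 109119917) had 70.2 in Meis2-CKO and 67.0 in control (log2 fold change 0.08, p = 0.524) in the authors' deposited table. The antisense gene Gm7628 shares 257 nt with exons of Plxnb1. The pair summed to 152.8 in Meis2-CKO and 147.6 in control.

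Plxnd1, the receptor of Sema3e, had the lowest fold change of the receptors. It (ENSMUSG00000030123, chromosome 6 of GRCm38, 115954811 to 115995005) had a mean of 14.6 in Meis2-CKO and 17.5 in control, a log2 fold change of -0.25 with p = 0.327 in the authors' deposited table. The gene is known both from endothelium and from direct-pathway neurons, and in this table the direct-pathway factors Isl1 (12.5 in Meis2-CKO and 57.9 in control) and Ebf1 (3.75 in Meis2-CKO and 21.3 in control) passed as lower. The 10 endothelial markers summed to 73.8 in Meis2-CKO and 77.4 in control, and none of them passed. The difference of Plxnd1 did not pass, and the part of either cell type in it was not tested. Plxnc1 (ENSMUSG00000074785, chromosome 10 of GRCm38, 94790866 to 94944835), the receptor of Sema7a, had 16.6 in Meis2-CKO and 17.0 in control (log2 fold change of -0.02) in the authors' deposited table.

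The neuropilins were the least expressed receptors. Nrp2 (ENSMUSG00000025969, chromosome 1 of GRCm38, 62703285 to 62818695), which holds Sema3f, had a mean of 8.65 in Meis2-CKO and 8.16 in control (log2 fold change 0.10, p = 0.782) in the authors' deposited table. Nrp1, which holds Sema3a and also the vascular growth factor Vegfa, had 4.40 in Meis2-CKO and 4.24 in control (log2 fold change 0.06). Interneurons from the medial and caudal eminences can carry neuropilins, and 8 markers of those cells summed to 159.9 in Meis2-CKO and 160.0 in control. Sst was the largest part of that sum (79.0 in Meis2-CKO and 78.2 in control). Single markers went both ways, 5 above 0 and 3 below, from -0.42 (Cxcr4) to 0.66 (Prox1), and none passed. The near-equal sums therefore do not show an unchanged content of these cells.

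Ligands and receptors are set side by side here without a test. The median of the authors' deposited log2 fold changes was 0.02 for the 19 ligands and 0.03 for the 10 receptors. The receptors had 7 fold changes above 0 and 3 below, and by the means themselves 6 were higher in Meis2-CKO and 4 lower. The median absolute log2 fold change was 0.10 for ligands and 0.06 for receptors, and 8 of 10 receptors against 8 of 19 ligands lay within 0.1 of 0. The median ligand level was 9.42 in Meis2-CKO and 11.2 in control, and the median receptor level was 24.3 in Meis2-CKO and 22.8 in control. Over all protein-coding genes the median absolute log2 fold change was 0.12 at control means from 1 to below 10, 0.08 from 10 to below 30 and 0.06 from 30 to below 100. The members in these 3 ranges had medians of 0.09 (10 members), 0.19 (11 members) and 0.05 (7 members). In the middle range the members' median was thus above that of all protein-coding genes, and in the other ranges below it. The difference in range between ligands and receptors stands beside their difference in level and was not tested.

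In 11 of 11 known ligand and receptor pairs examined, the partner with the higher mean was the same in both genotypes, and it was the receptor in 7. No member's absolute log2 fold change was above 0.44, so the order could change only where the means of a pair were close. The count of pairs with the same order therefore shows little. The mean of Plxnb2 was 2.74 times that of Sema4c in Meis2-CKO and 2.60 times in control. Plxnd1 was 11.0 times Sema3e in Meis2-CKO and 13.5 times in control. Nrp2 was 0.479 times Sema3f in Meis2-CKO and 0.358 times in control, and Nrp1 was 0.526 times Sema3a in Meis2-CKO and 0.466 times in control. Plxna1 and Sema6d had near-equal means in Meis2-CKO (26.53 and 26.54), while in control Plxna1 was 0.891 times Sema6d. Bulk means do not say whether ligand and receptor were made by the same cells, and these ratios were not tested.

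The differences that the authors' test did call at these levels give a scale for the members' values. Among 2694 protein-coding genes with a control mean from 30 to below 100, the smallest absolute log2 fold change called was 0.51, and the 7 members at that level reached 0.25. Among 4086 genes from 10 to below 30 it was 0.80, and the 11 members there reached 0.44. Among 4522 genes from 1 to below 10 it was 1.33, and the 10 members there reached 0.34. Every member with a control mean of at least 1 was therefore below the smallest difference called at its level, and a miss of the threshold does not show that a member had equal levels in the genotypes. The 95th percentile of the absolute log2 fold change was 0.54, 0.30 and 0.21 in the ranges from 1, 10 and 30. Sema6b (-0.44) and Sema3f (-0.32) lay past it in the middle range and Sema5b (0.25) in the highest range. The other members in these ranges did not.

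**Figure D3:**
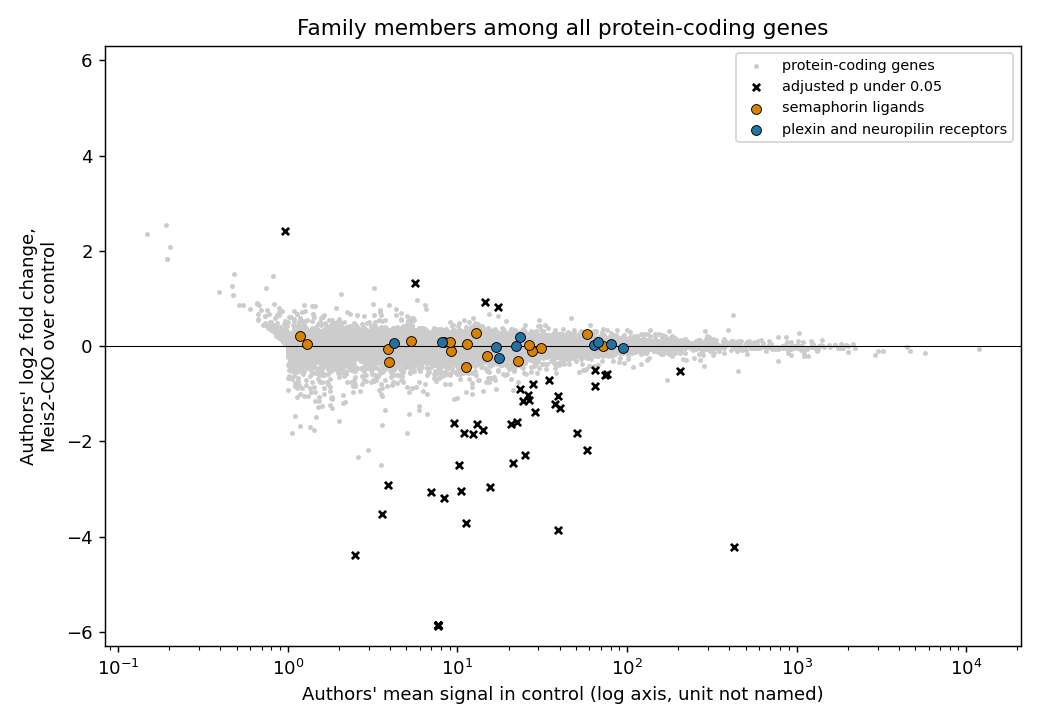
Each of the 12203 points is a protein-coding gene with a higher mean of at least 1 and a control mean above 0, with its control mean on the log-scaled x axis (unit not named) and the authors' log2 fold change (Meis2-CKO against control) on the y axis; crosses mark genes with an adjusted p under 0.05, orange points 18 semaphorins and blue points 10 receptors. The 28 members lie between -0.44 and 0.27, while the 47 crosses lie at least 0.51 from 0.

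The promoters of the family were searched for TGACAG, the hexamer that Meis proteins are known to bind, because Meis2 is the gene removed. RefSeq promoter windows (GRCm38.p6) were found for 24 of 29 members by symbol, 35 windows in all; Plxna1, Plxna4, Sema3b, Sema3f and Sema6a had none. The search covered the 250 bases before each start site on both strands. TGACAG or its reverse complement CTGTCA was present in 7 of 35 member windows (20.0%) and in 5210 of all 32851 RefSeq windows (15.9%). Counted by gene, it was present in 5 of 24 members (20.8%). Of the protein-coding genes in the deposited table that had a window, it was present in 1727 of 10409 (16.6%). The members with a match were Plxna2, Sema3g, Sema4d, Sema6c and Sema7a, for which the authors' deposited table gave log2 fold changes of 0.02, 0.10, -0.05, -0.0042 and -0.20. None of these 5 passed. A match is a stretch of letters and not a measured binding site, and a window without one says nothing on the factor.

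Windows of 3 of these genes are printed to show the hexamer, in capitals, in a receptor and in ligands of differing level; each runs 5′ to 3′ on the plus strand.
Plxna2, chr1:194619579-194619828: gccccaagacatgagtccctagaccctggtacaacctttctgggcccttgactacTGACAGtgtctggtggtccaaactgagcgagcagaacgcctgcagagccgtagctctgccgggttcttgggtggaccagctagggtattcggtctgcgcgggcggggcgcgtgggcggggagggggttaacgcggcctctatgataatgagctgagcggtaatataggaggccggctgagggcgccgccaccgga
Sema6c, chr3:95164089-95164338: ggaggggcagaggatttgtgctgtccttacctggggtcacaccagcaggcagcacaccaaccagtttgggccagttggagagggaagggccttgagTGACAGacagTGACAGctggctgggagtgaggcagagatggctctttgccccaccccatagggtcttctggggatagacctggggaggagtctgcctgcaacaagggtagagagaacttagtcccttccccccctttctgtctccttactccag
Sema7a, chr9:57939862-57940111: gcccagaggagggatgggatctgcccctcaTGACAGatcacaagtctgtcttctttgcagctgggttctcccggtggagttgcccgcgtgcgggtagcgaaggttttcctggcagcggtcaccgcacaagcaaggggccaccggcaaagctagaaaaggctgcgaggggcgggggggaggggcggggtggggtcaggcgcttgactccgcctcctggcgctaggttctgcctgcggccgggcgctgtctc
The hexamer begins 195 bases before the start site in Plxna2 and 220 bases before it in Sema7a. In the second of the listed Sema6c windows it occurs as a tandem pair, at 154 and 144 bases before the start, and Sema6c had nearly equal means in the genotypes (70.9 in Meis2-CKO and 71.8 in control). That window lies inside the gene span given above. The first Sema6c window (chr3:95160170-95160419), just before the start of that span, held no match.

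Beyond the ligands and receptors, a list of 49 co-receptors and intracellular mediators of semaphorin signalling was examined, and all were listed. By the authors' deposited adjusted p, 1 of 49 fell and 0 rose, while over all genes 0.544% were called as lower. The list's median log2 fold change was -0.05. The gene that fell was L1cam, a neural adhesion molecule that acts as a co-receptor with Nrp1 for Sema3a, with a mean of 49.8 in Meis2-CKO and 76.0 in control (log2 fold change -0.60, adjusted p = 0.0013) in the authors' deposited table. Of the 8 young-neuron markers 6 also lay below 0, and the means of Xist and Eif2s3y differed between the groups, as given above. The part of either in the value of L1cam was not tested. Other neural adhesion molecules of the list did not pass, with Chl1 at 12.4 in Meis2-CKO and 16.2 in control, Cntn2 at 41.3 in Meis2-CKO and 48.3 in control, and Nrcam at 34.9 in Meis2-CKO and 35.3 in control.

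The cytoplasmic mediators gave no call. All 5 collapsin response mediators, tubulin-binding proteins that act below Sema3a, lay below 0, and their median log2 fold change by the authors' deposited table was -0.06. Dpysl3 was the most expressed of them (406 in Meis2-CKO and 442 in control, log2 fold change -0.11, p = 0.264 in the authors' deposited table), and Crmp1 had 258 in Meis2-CKO and 277 in control. Of 10 small GTPases 6 lay above 0 and 4 below. Rnd3 had 138.6 in Meis2-CKO and 124.1 in control (log2 fold change 0.17, p = 0.176) in the authors' deposited table, and Rac1, which binds the protein of Plxnb1, had 186 in Meis2-CKO and 177 in control. Among kinases Limk2, which phosphorylates cofilin, had 38.6 in Meis2-CKO and 45.7 in control (log2 fold change -0.23, p = 0.140 in the authors' deposited table), and cofilin itself (Cfl1) had 878 in Meis2-CKO and 920 in control.

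**Figure D4:**
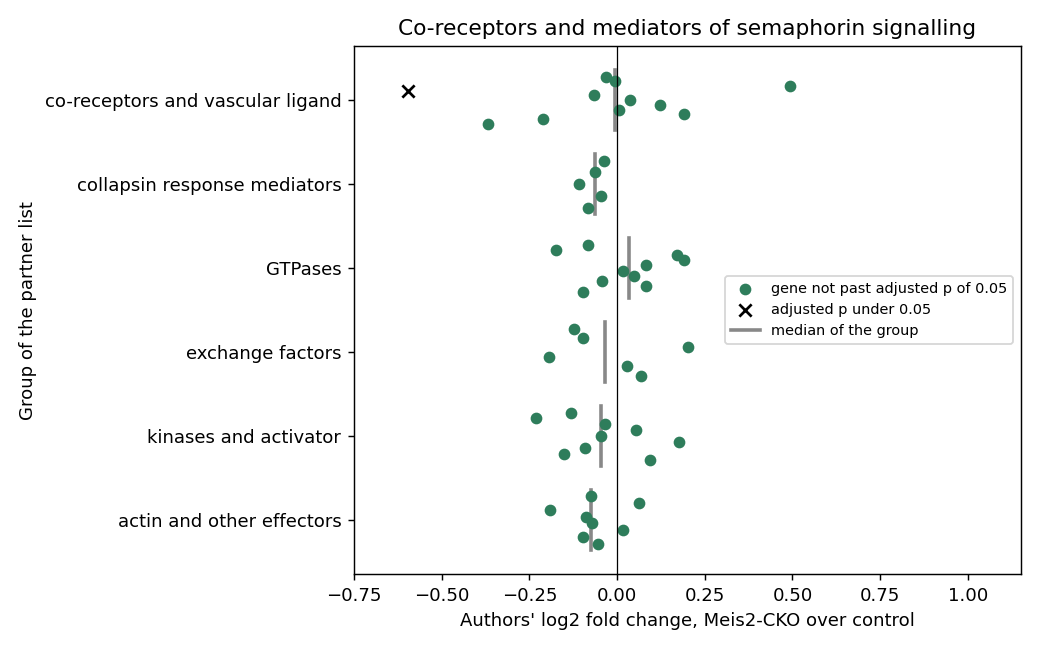
Each point is 1 of the 49 listed co-receptors and mediators, placed on the x axis by the authors' deposited log2 fold change, Meis2-CKO against control, and grouped by role (y axis, where points are spread only for legibility); grey lines are group medians. The cross at -0.60 is L1cam, the 1 gene past an adjusted p of 0.05, and the group medians lie between -0.07 and 0.03.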

How the data were processed

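RNA-seq was done on 4 Meis2-CKO and 4 control samples of lateral ganglionic eminence, per the labels. The submitters' processing notes name the mouse builds GRCm38.p2 and mm10 and, without roles, the tools StringTie 1.3.1, HISAT2 2.1.0 and FastQC 0.11.5. The deposited table gives a mean expression signal for each genotype, averaged over libraries by the authors, with no unit named per the file headers. The log2 fold change (Meis2-CKO over control), the p-value and the adjusted p-value were deposited by the authors; no source used here names their tool. The adjusted p matched a Benjamini-Hochberg adjustment over all 16913 rows. The table also holds 8 columns of library values whose names match no sample label; they were not used in any step, so no SD, no test on libraries and no leave-one-out value is given. Depth is unknown. Rows were matched to GENCODE M21 on GRCm38 by Ensembl ID (16861 matched, 52 did not).

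Members were protein-coding rows whose symbols name a semaphorin, plexin or neuropilin. Members and gene lists were chosen with earlier results of these data known. A row was called at an adjusted p of 0.05. All 29 members are given. Values in full were fixed for members with an unadjusted p under 0.05, the 3 largest rises and 3 largest falls of ligands and of receptors with a higher mean of at least 1, and the 5 highest control means; partner genes were named if called. Other genes and values named in the text were chosen after their values were seen. Alternatives were another adjustment, a minimum mean, a pseudocount of 1, centring on the median and a fold of 1.5; the log2 ratio of the means was added after the data were seen. The adjustment code was tested on simulated data. Python 3.11.15, numpy 2.4.6, pandas 2.3.3 and matplotlib 3.10.9 were used.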

Additional observations from a re-analysis of the deposited data

How the results depend on the processing

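The count of 0 called members stayed at 0 when p-values were adjusted over protein-coding genes only, by the Benjamini-Yekutieli method, or over genes whose higher mean was at least 1. The background of 132 called genes came to 128, 134 and 106 with a fold of at least 1.5, a minimum mean of 1 and the Benjamini-Yekutieli method. L1cam was still called by the Benjamini-Yekutieli method, the 1 other adjustment run for the partner list. The sign of 28 of 29 members held under a pseudocount of 1, centring and the log2 ratio of the means, a measure added after the data were seen. Plxna4 turned from 0.01 to -0.0011 with the pseudocount, to -0.00015 with centring and to -0.0011 with the ratio. The ligand median of 0.02 became 0.0092 with a minimum mean of 1, 0.0099 with the pseudocount, 0.011 with centring and 0.010 with the ratio. The receptor median of 0.03 became 0.021 with the pseudocount, 0.022 with centring and 0.021 with the ratio. The partner median of -0.05 became -0.057 with centring. The shift with a minimum mean of 1 comes from leaving out Sema3g, and that with centring from subtracting the protein-coding median of 0.01; the cause of the others was not tested. No paired analysis was possible because the library columns could not be matched to samples; limma on libraries and leaving out each replicate were not run for the same reason. Depth is unknown, and the missing spread limits what a miss of the threshold can show.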
